A study of Mus musculus with 6 samples.

Results

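The Ptn and Chrm2 block is the stretch of mouse chromosome 6 from 36000000 to 36999999, read as GRCm39, and its members are the ATAC-seq peaks whose summit lies in it. In all 6 libraries together, 415 of the 1453803 peaks listed on chromosomes 1 to 19, X and Y met that rule. There were 64 and 63 in the Day0 libraries, 63 and 62 at Day3, then 81 and 82 at Day10. The block was selected on the ranks of its peaks at Day10 against Day0, since earlier results of these data showed many open regions lost there. Its Day10 against Day0 values are therefore a description with no test, and nothing is supported by them.

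ATAC-seq marks open chromatin by the places where the Tn5 transposase can insert sequencing adapters. The cells were ATDC5, an established mouse line of cartilage precursors, so every culture shares the genotype of that line. All cultures were seeded as dense droplets and left to attach. Day0 cells carry the label control. Day3 and Day10 cells were differentiated, and received beta-glycerophosphate together with ascorbate-2-phosphate. There were 2 libraries per day. Peak lists hold no RNA, and no annotation of their genome build was used here, so the labelled cell type was not checked against marker genes. Bulk libraries cannot tell a site open in fewer cells from a site less open in each cell.

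Ptn encodes pleiotrophin, a secreted heparin-binding growth factor made in developing nervous and skeletal tissue, which binds cell-surface proteoglycans and receptor phosphatases. Chrm2 encodes the M2 muscarinic acetylcholine receptor, a G-protein-coupled receptor best known for slowing the heart. Open chromatin at a gene's start marks its promoter, and open sites farther off are often enhancers, whose target gene cannot be read from position alone. Chrm2 lies near 36.36 to 36.50 Mb (megabases) and Ptn near 36.69 to 36.79 Mb, with both spans rounded to 10 kb, so a site within 5 kb of an edge cannot be placed inside or outside. In RefSeq on the older build GRCm38.p6, Chrm2 lies on the plus strand and Ptn on the minus strand, so the start of Ptn is at the upper edge of its span. In the same annotation the protein-coding genes run in the order Mtpn, Chrm2, Ptn and Dgki. The miRNA gene Mir490 and the pseudogene Gm2189 come between Chrm2 and Ptn in the order of gene starts.

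The upstream sequences of both genes are shown because the highest fold of the block lies near the Ptn start in every library, while the Chrm2 start has a weak peak. They are the 250 bases before the annotated start, from RefSeq on GRCm38.p6, 5′ to 3′ on the gene's strand, and capitals mark CpG dinucleotides. Ptn is at chr6:36810180-36810429 (minus strand) and Chrm2 at chr6:36387834-36388083 (plus strand) in that build. Whether a peak covers exactly these bases was not determined, since the builds differ and no coordinates were converted.

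Ptn: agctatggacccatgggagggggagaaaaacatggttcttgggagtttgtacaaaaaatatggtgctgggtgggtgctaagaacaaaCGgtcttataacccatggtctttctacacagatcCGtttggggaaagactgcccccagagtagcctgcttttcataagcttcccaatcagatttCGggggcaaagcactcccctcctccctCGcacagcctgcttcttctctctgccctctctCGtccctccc

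Chrm2: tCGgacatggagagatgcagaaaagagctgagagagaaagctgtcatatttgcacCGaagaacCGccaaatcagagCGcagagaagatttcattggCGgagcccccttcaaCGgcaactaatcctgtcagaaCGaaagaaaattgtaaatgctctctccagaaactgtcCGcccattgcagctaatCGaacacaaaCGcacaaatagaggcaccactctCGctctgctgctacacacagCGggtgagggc

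The Ptn sequence was 52.0% GC with 5 CpG, and the Chrm2 sequence was 50.0% GC with 12 CpG. The medians over 32851 annotated upstream windows of the same length were 52.4% GC and 6 CpG. Searched on both strands, neither sequence held the letters TGANTCA (AP-1), GGAATG (TEAD), TGTGGT (RUNX), ACAAAG (SOX), TTGGCA (NFI), CANNTG (E-box) or TGACGTCA (ATF/CREB), nor the core motif of CTCF. Over all those windows, 6.7% held the AP-1 letters, 12.6% TEAD, 14.0% RUNX, 16.5% SOX, 0.6% CTCF, 12.3% NFI, 66.2% an E-box and 1.5% ATF/CREB. A missing match says only that these letters are not in these windows.

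Each peak carries the authors' fold over background, and peaks were ranked within a library by the authors' -log10 p, with rank 1 the strongest. The lists held 164320 and 164660 peaks at Day0, 177425 and 176799 at Day3, then 380922 and 389677 at Day10 on these chromosomes. Because the lists differ in length, equal numbers of the strongest peaks were compared. Rank 50000 corresponded to a fold of 16.9 and 17.3 at Day0, 14.5 and 15.0 at Day3, then 17.8 and 17.7 at Day10. Rank 100000 corresponded to 7.6 and 7.5, then 6.7 and 7.2, then 10.1 and 10.2 on the same days. The 2 libraries of a day differed by less than sampling noise: the squared difference of their recovered pileups was 0.17 to 0.22 times that of Poisson counting, against 1.2 to 1.97 times for libraries of different days. The 2 libraries of a day may thus be 1 library split or deposited as a pair, and their closeness says nothing of how separate cultures vary. Each day was therefore counted as 1 sample, both library values are printed, and no SD or p-value is given. Where days are said to overlap or stand apart, this describes only the printed library values. The narrowest Day10 peaks spanned 68 and 72 bases, against 87 to 90 in the other lists, and the word lysis occurs in peak names at Day3 and on no other day. Day and any separate handling of these libraries cannot be told apart.

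Among the 50000 strongest peaks of each library, the block held 18 and 18 at Day0, 16 and 15 at Day3, then 4 and 4 at Day10. The Day10 count was 0.22 times that of Day0 and 0.26 times that of Day3. Counting peaks by -log10 q, at 5 and above it was 0.93 times that of Day0 and 1.01 times that of Day3, and at 10 and above 0.84 and 0.85 times. Among the 100000 strongest, the block held 37 and 36 at Day0, 38 and 38 at Day3, then 17 and 17 at Day10. In the counts among the 50000 and the 100000 strongest, the 2 libraries of a day differed by at most 1 peak. In these 2 counts the Day10 libraries did not overlap those of the other days. At a -log10 q of 5 and above, the block held 55 and 54 at Day0, 50 and 50 at Day3, then 47 and 54 at Day10. The Day10 range there reached those of both other days. The direction turned when every listed peak was counted. The block then held 1.28 times as many peaks at Day10 as at Day0, while the whole lists were 2.34 times as long. It held 1.30 times as many as at Day3. The megabases on either side did not share the low Day10 count: among the 50000 strongest, the one before held 29 and 28 peaks at Day0, 21 and 22 at Day3, then 30 and 29 at Day10. The one after held 34 and 35, then 32 and 30, then 44 and 43.

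**Figure D1:**
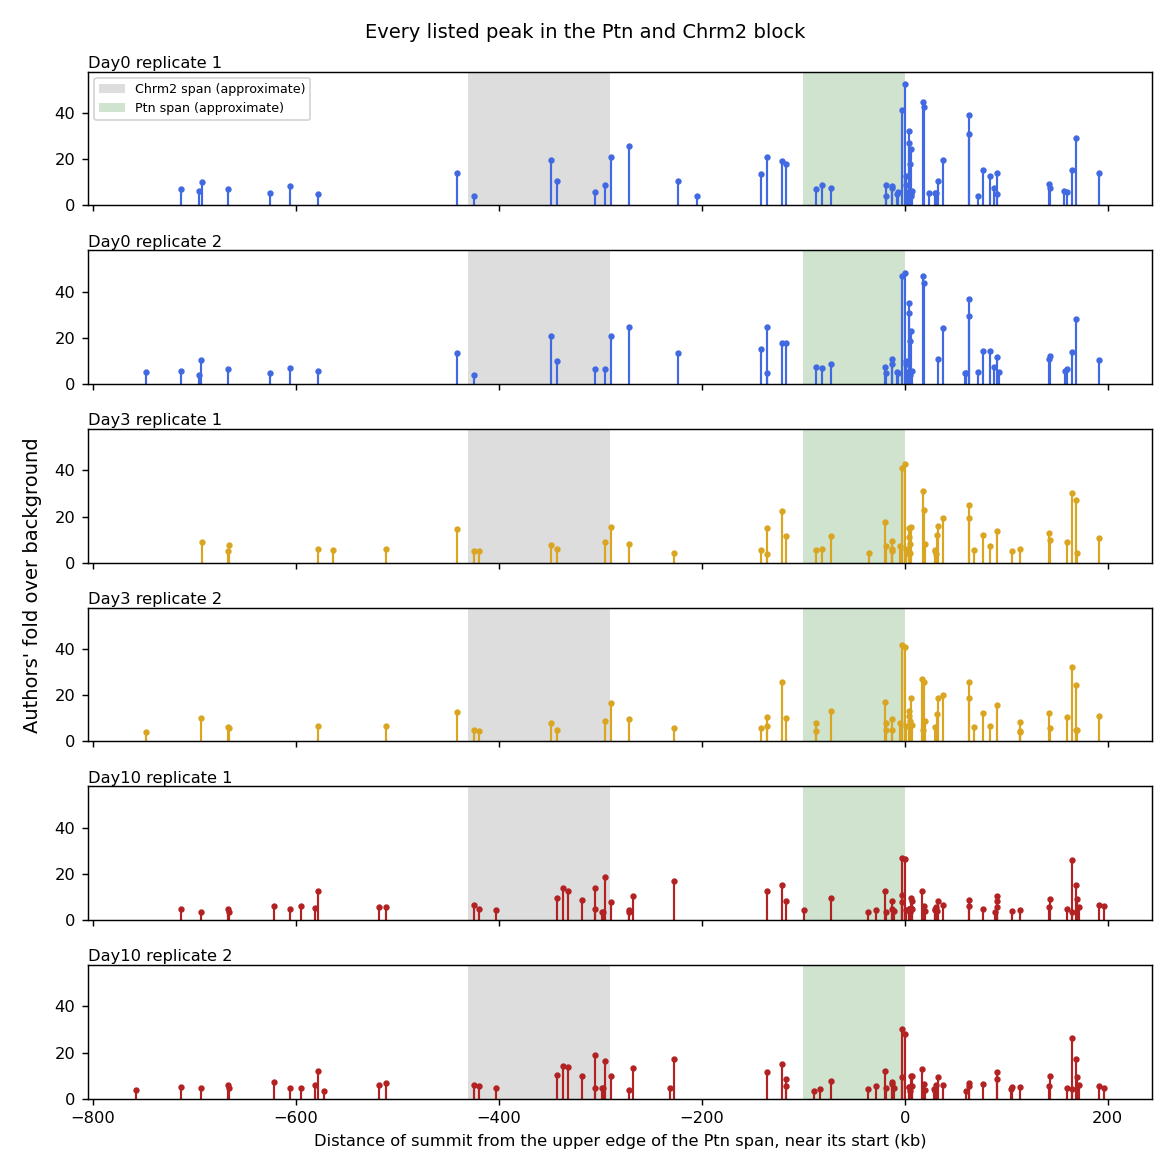
Every listed peak in the block, 1 panel per library, by distance of its summit in kb from the upper edge of the Ptn span (x) and the authors' fold over background (y). The tallest peaks stand at 0 on every day, reaching 52.4 and 48.0 at Day0, 42.8 and 41.7 at Day3, then 26.9 and 30.2 at Day10, and several tall Day0 peaks to their right are short at Day10.

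For comparisons, regions were windows reaching 250 bases to either side of the summits of the 50000 strongest peaks of any library, and 23 of the 78698 such windows lie in the block. A region was strong on a day when it ranked within 50000 in each of that day's libraries. It was lost when it was strong on the earlier day and ranked worse than 100000, or was not listed, in both libraries of the later day, both by summits in the window and by any overlapping peak. Gained regions met the mirrored rule. In the block 17 regions were strong at Day0, 13 at Day3 and 3 at Day10. Over all 78698 regions, 45651 were strong at Day0, 45362 at Day3 and 44548 at Day10. By the rounded spans, no region lay before the Chrm2 span, 3 lay in it, 5 between the genes, 2 in the Ptn span and 13 beyond the Ptn start, but 5 of the 23 lie within 5 kb of an edge and could fall on either side of it.

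At Day10 against Day0, 11 of the 23 regions were lost and 0 were gained. Over all 78698 regions 7.99% were lost and 10.7% gained. Of the 17 regions strong at Day0, 11 were lost, beside 13.8% over all regions strong at Day0. The block was chosen by these values, so nothing is read from the difference. Among 2318 megabase blocks with any region, 8 had more lost regions and 9 others had as many. Counts moved with the rule: with folds of 16 and 8 as limits in place of ranks 7 regions were lost, beside 6.43% over all regions. With a -log10 q of 10 and 5 as limits 3 were, beside 3.41%. Without Day10 replicate 1, 1 region was gained, the one at 36.485 Mb described below. By the main rule, the megabase after the block lost 8 of its 31 regions strong at Day0 and gained 11 of its 65 regions. The megabase before the block lost 1 of 27 and gained 9 of 44, and by summits alone it lost 6.

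The highest fold of the block in each library stood near the Ptn start, and both regions there were kept. The region from 36786749 to 36787249, within 5 kb of the upper edge of the Ptn span, had a fold of 41.4 and 46.8 at Day0, 41.1 and 41.7 at Day3, then 26.9 and 30.2 at Day10. Day0 and Day3 overlapped, and both Day10 libraries were lower. Its peak was 1900 and 1865 bases wide at Day0, 1792 and 1822 at Day3, then 1239 and 1147 at Day10, where 1 or 2 smaller peaks were listed in the rest of the interval. The second, from 36790046 to 36790546, had a fold of 52.4 and 48.0 at Day0, 42.8 and 41.1 at Day3, then 26.4 and 27.9 at Day10, with no overlap between days. Both remained within rank 50000 in all 6 libraries and were the only regions of the block to do so, beside 32.7% of regions over the genome. Their fold at Day10 was 0.65 and 0.54 times that at Day0.

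A cluster of regions at or just beyond the upper edge of the Ptn span was lost, and its first 2 regions, within 5 kb of that edge, cannot be placed inside or outside the gene. The region from 36793592 to 36794092 had a fold of 32.0 and 35.2 at Day0, 15.0 and 13.3 at Day3, then 4.8 and 5.1 at Day10. Its neighbour from 36794144 to 36794644 had 26.8 and 30.6, then 11.1 and 11.1, then 4.8 and 5.1. Each day stood apart from the others in both regions, with Day3 in the middle. At 36.795 Mb, the region from 36795183 to 36795683 had a fold of 18.1 and 18.5 at Day0, 8.3 and 8.9 at Day3, then 3.4 and 3.3 at Day10, close to the lowest fold that the Day10 lists hold, 2.88 and 2.79. The region from 36795866 to 36796366 had 24.5 and 23.1 at Day0, 15.6 and 18.9 at Day3, then 9.6 and 9.8 at Day10, and lay just past the limit, at Day10 ranks 105388 and 103195.

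A second pair of wide Day0 peaks lay about 18 and 19 kb beyond the upper edge of the Ptn span. The region from 36807371 to 36807871 had a fold of 44.9 and 46.8 at Day0, 31.1 and 27.2 at Day3, then 12.5 and 13.0 at Day10. It ranked 78531 and 75019 at Day10 and so was not called lost, although its Day10 fold was 0.28 times that of Day0. The region from 36809169 to 36809669 had 42.5 and 43.9 at Day0, 22.8 and 25.6 at Day3, then 6.2 and 6.5 at Day10, which is 0.15 times Day0, and it was lost. The peak behind it was 1093 and 1306 bases wide at Day0, 605 and 619 at Day3, then 177 and 215 at Day10. Between the ends of the Day0 peak, Day3 and Day10 libraries each listed 1 or 2 further small peaks, so the widths also differ by how the interval was split. The recovered pileup, the number of reads stacked at that summit, was 72 and 75 at Day0, 40 and 45 at Day3, then 12 and 13 at Day10.

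Farther beyond the Ptn start, 2 more regions were lost. The one from 36827609 to 36828109, 37.9 kb from the span's edge, had a fold of 19.8 and 24.3 at Day0, 19.5 and 20.0 at Day3, then 6.7 and 6.0 at Day10. Day0 and Day3 overlapped there, and Day10 alone was lower. The one from 36852772 to 36853272, 63.0 kb from the edge, had 39.0 and 37.0, then 25.0 and 25.6, then 8.6 and 7.0. A separate peak beside it, too close for a window of its own, had a fold of 30.9 and 29.5 at Day0, 19.5 and 18.9 at Day3, then 6.2 and 5.6 at Day10. Both peaks of that pair were thus highest at Day0 and lowest at Day10.

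On the Chrm2 side of Ptn 4 regions were lost. The region in the Chrm2 span from 36440900 to 36441400 had a fold of 19.8 and 20.8 at Day0 and 7.8 in both Day3 libraries, and had no listed peak at Day10. It was the only lost region with none. At the lower end of the stretch between the genes, the region from 36500321 to 36500821, within 5 kb of the Chrm2 span's edge, had 21.0 and 20.8 at Day0, 15.6 and 16.7 at Day3, then 7.7 and 9.8 at Day10. The region from 36518128 to 36518628 had 25.6 and 24.8 at Day0, 8.3 and 9.5 at Day3, then 4.3 and 3.7 at Day10. Nearer to Ptn, the region from 36672390 to 36672890 had 18.1 and 17.9, then 11.7 and 10.0, then 8.2 and 8.4. In all 4 the library values of the days did not overlap. No share over all regions is given for this, so nothing is read from it.

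The 3 other regions strong at Day0 kept a middle rank at Day10. The region at 36.654 Mb had a fold of 21.0 and 24.8 at Day0, 15.0 and 10.6 at Day3, then 12.5 and 11.6 at Day10, so Day3 and Day10 overlapped. The region at 36.669 Mb was highest at Day3, with 19.2 and 17.9 at Day0, 22.2 and 25.6 at Day3, then 15.4 and 14.9 at Day10. The region at 36.959 Mb had 29.1 and 28.3, then 27.2 and 24.5, then 15.4 and 17.2. Around the limit of the rule, the last region kept out of the lost class was that at 36.654 Mb, with a best Day10 rank of 78529. The first one in it was that at 36.501 Mb, with 103194.

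**Figure D2:**
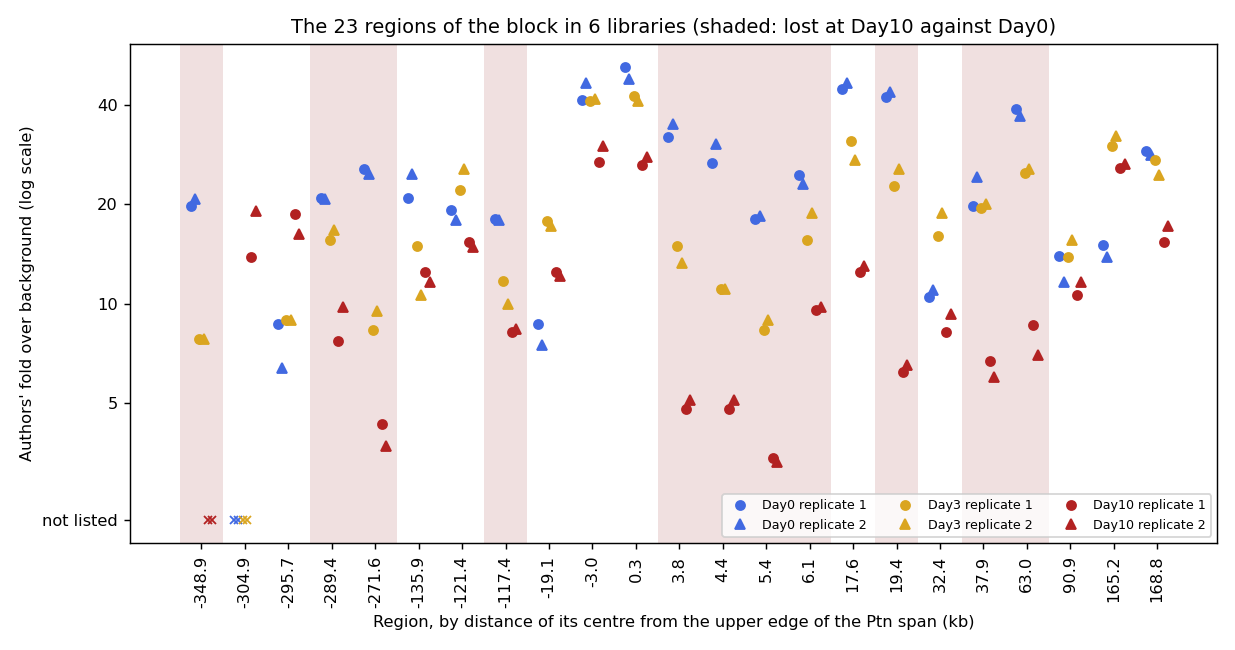
The authors' fold (y, log scale) of the 23 regions in each library, ordered by distance in kb of their centre from the upper edge of the Ptn span (x), with shading on the 11 regions lost at Day10 against Day0 and crosses where no peak was listed. Day10 points or crosses are the lowest in every shaded column, and at -304.9 kb only the Day10 libraries have a listed peak.

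Of the 17 regions strong at Day0, all 17 had both Day10 libraries below both Day0 libraries, beside 77.2% of the regions strong at Day0 over the genome. The median log2 ratio of the mean fold at Day10 over Day0 was -1.79 in the block and -0.43 over the 45651 regions strong at Day0 in the genome, of which 84.6% were below 0. The 1 region with no Day10 peak was set at the lowest listed fold, and the median was -1.54 without it. Both medians share the choice of strong Day0 regions, which by itself favours lower values on another day. The block was moreover chosen on its Day10 against Day0 ranks, so nothing is read from its differences from the genome.

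**Figure D3:**
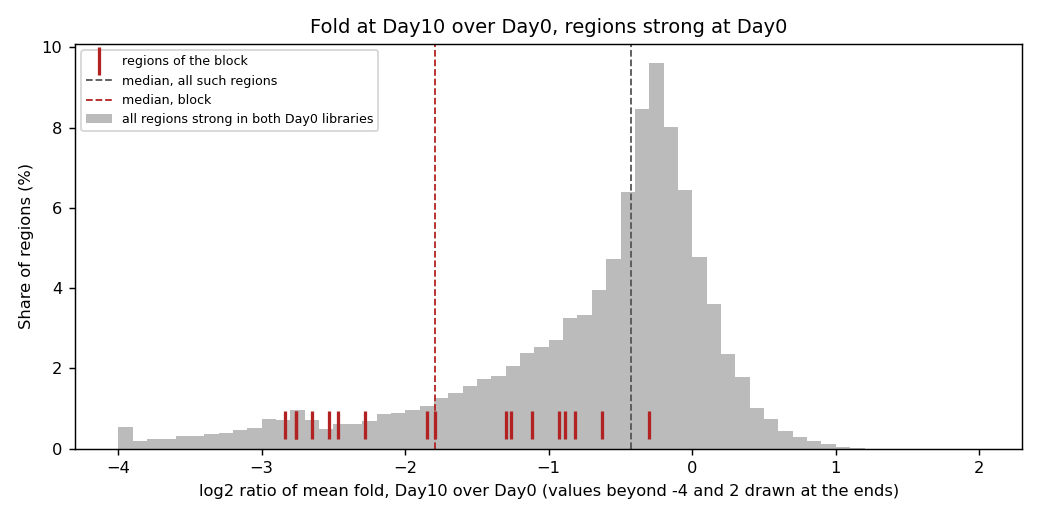
The log2 ratio of the mean fold at Day10 over Day0 (x) for all 45651 regions strong in both Day0 libraries (grey, share of regions in percent on y) and for the 17 such regions of the block (red ticks). The dashed lines mark medians of -0.43 for all regions and -1.79 for the block, whose ticks all lie below 0.

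Day3 was compared with Day0 to place the lower folds in time, with the same Day0 libraries as above. No region of the block was lost or gained by the rule at Day3, beside 0.513% lost and 0.543% gained over all regions. That count moved with the limits: 3 were lost and 1 gained with an outer limit of 75000, 5 and 3 with no gap between limits, and 1 and 0 with fold limits. No share over all regions is given for these other limits, so nothing is read from their counts. By fold, 10 of the 11 regions lost by Day10 already had both Day3 libraries below both Day0 libraries, and the exception was the region at 36.828 Mb. Over the genome 97.0% of the regions lost by Day10 did so, so the block's count is near that background. Over the 17 regions strong at Day0, the median log2 ratio of the mean fold at Day3 over Day0 was -0.65, against -0.26 over all regions strong at Day0. The block was chosen on ranks in these same Day0 libraries, and the regions for being strong there. Both choices by themselves favour lower values at Day3, so nothing is read from this difference. Among the 11 lost regions the Day3 over Day0 ratio ranged over regions from -1.50 at 36.518 Mb to -0.16 at 36.828 Mb. By rank, 5 of the 11, at 36.501, 36.796, 36.809, 36.828 and 36.853 Mb, were within 50000 in both Day3 libraries. No share over all lost regions is given for this count, so nothing is read from it.

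At Day10 against Day3, 6 regions were lost and 0 gained, beside 3.16% lost and 7.72% gained over all regions. The lost ones were those 5 and the region at 36.822 Mb, which was not strong at Day0. That region had a fold of 10.5 and 11.0 at Day0, 16.1 and 18.9 at Day3, then 8.2 and 9.3 at Day10, so it stood highest at Day3. Of the 13 regions strong at Day3, the median log2 ratio of the mean fold at Day10 over Day3 was -0.83, against -0.21 over all regions strong at Day3. The block was chosen on ranks in these same Day10 libraries. Choosing regions strong at Day3 also by itself favours lower values on another day. Nothing is therefore read from these differences. With the limits set by folds 2 regions were lost, beside 1.23% over all regions, and with limits set by -log10 q 3 were, beside 2.40%.

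Among the remaining regions, 2 in the Ptn span or beyond the Ptn start were higher on later days than at Day0. The region at 36.771 Mb in the Ptn span had a fold of 8.7 and 7.5 at Day0, 17.8 and 17.2 at Day3, then 12.5 and 12.1 at Day10. The region at 36.955 Mb had 15.1 and 13.9 at Day0, 30.0 and 32.3 at Day3, then 25.9 and 26.5 at Day10. In both the days did not overlap, and Day3 was the highest. A further region, at 36.881 Mb, kept no such order and had 14.0 and 11.6, then 13.9 and 15.6, then 10.6 and 11.6, with the ranges of Day0 and Day10 touching.

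The Chrm2 span held sites with their highest fold at Day10. In its span, the region at 36.494 Mb had a fold of 8.7 and 6.4 at Day0, 8.9 and 8.9 at Day3, then 18.7 and 16.3 at Day10. The region at 36.485 Mb was not listed at Day0 or Day3 and had 13.9 and 19.1 at Day10, at ranks 68707 and 44493. Weaker peaks in the span, at 36.453, 36.458 and 36.472 Mb, were also listed at Day10 alone, with folds of 13.9 and 14.4, 12.5 and 13.9, and 8.6 and 9.8. Beyond the span's upper edge, a peak at 36.522 Mb had 10.6 and 13.5 at Day10 alone. Another at 36.563 Mb had 4.4 and 5.6 at Day3 and 16.8 and 17.2 at Day10, and was not listed at Day0. These sites were picked out after their values were seen. The Day10 lists are also the longest. When overlapping peaks were merged over the genome, 41.4% of sites were listed in both Day10 libraries and in no Day0 library. At the Chrm2 start, near the lower edge of the span, a peak from 36365008 to 36365252 was listed in every library with a fold of 4.1 and 4.0 at Day0, 5.0 and 5.0 at Day3, then 6.7 and 6.0 at Day10. It is the listed peak nearest the rounded start and was weak on every day beside the peaks at the Ptn start.

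The stretches of the block, cut at the rounded edges of the spans, did not share a single pattern. Among the 100000 strongest peaks, the stretch beyond the Ptn start held 20 and 21 at Day0, 22 and 22 at Day3, then 5 and 5 at Day10. The stretch between the genes held 7 and 7, then 5 and 5, then 4 and 4. The Ptn span held 4 and 4 at Day0, 6 and 7 at Day3, then 3 and 2 at Day10. The Chrm2 span held 3 and 2 at Day0, 2 and 2 at Day3, then 4 and 5 at Day10. The stretch before Chrm2 held 1 to 3 in every library. Among the 50000 strongest, the Chrm2 span held 1 and 1 at Day0, 0 and 0 at Day3, then 1 and 1 at Day10. Its counts are small, and it also held the lost region at 36.441 Mb, so no trend of the span is read from them.

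**Figure D4:**
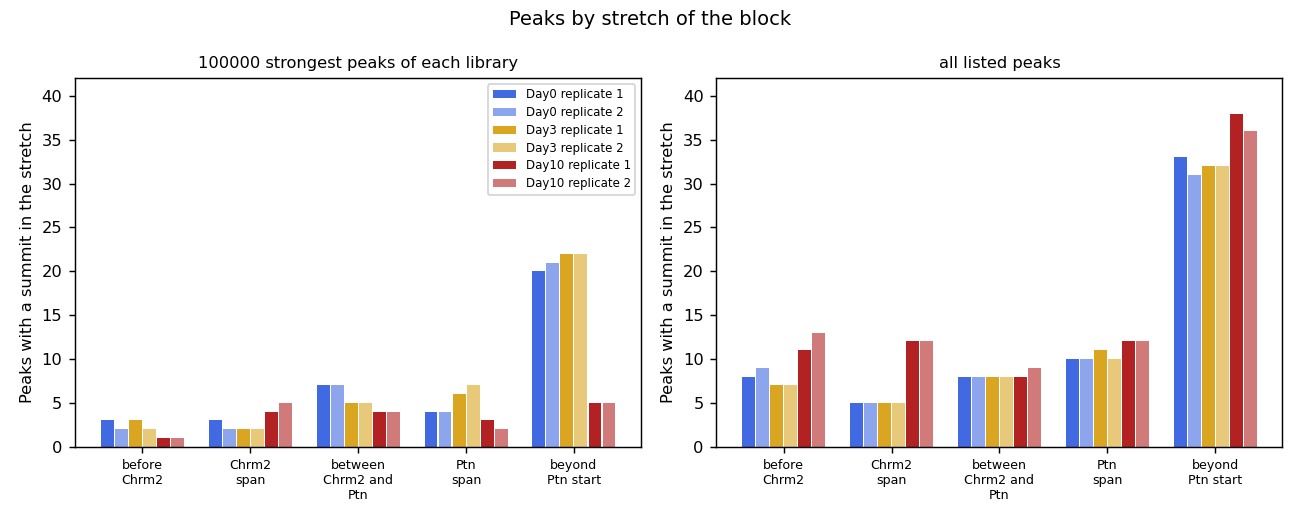
Number of peaks (y) with a summit in each of the 5 stretches of the block (x), for the 100000 strongest peaks of each library at left and all listed peaks at right, with 1 bar per library. Beyond the Ptn start the Day10 bars stand at 5 and 5 at left but at 38 and 36 at right, above the Day0 bars of 33 and 31.

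Overlapping peaks of all libraries merged into 110 sites. Of these, 36 had a listed peak in all 6 libraries, 16 had one in both Day0 libraries and none at Day10, and 27 had one in both Day10 libraries and none at Day0. Over the 439652 sites merged the same way in the genome, 22.1% had a peak in all 6 libraries, 4.89% were listed in both Day0 libraries but not at Day10, and 41.4% in both Day10 libraries but not at Day0. When every list was cut to the 164320 strongest peaks, the length of the shortest, there were 88 sites, of which 20 were listed in all 6 libraries, 30 in both Day0 libraries but not at Day10, and 8 in both Day10 libraries but not at Day0. Over the 246358 sites of the genome in those shortened lists, the shares were 33.1%, 17.0% and 20.7% in the same order. The balance between sites of Day0 and sites of Day10 thus turned with the list length. In the Chrm2 span 8 of 13 sites were listed at Day10 but not at Day0 in the full lists and 1 at Day0 but not at Day10, and 4 and 2 of 10 in the cut ones. Day10 sites outnumber Day0 sites over the genome as well in both settings, so nothing particular to the span is read from these counts. Beyond the Ptn start the counts were 8 and 6 of 50 sites in the full lists, and 2 and 13 of 43 in the cut ones.

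The megabase block most like this one, by the number of its peaks among the 50000 strongest in each of the 6 libraries, lay on chromosome 11 from 7 to 8 Mb. It held 15 and 15 peaks at Day0, 14 and 15 at Day3, then 4 and 3 at Day10. The next were on chromosome 1 from 35 to 36 Mb, chromosome 14 from 36 to 37 Mb, chromosome 2 from 14 to 15 Mb and chromosome 9 from 111 to 112 Mb. Likeness was the Euclidean distance between log2 counts with a pseudocount of 1 over the 6 libraries, from 0.51 to 0.86 for these 5 blocks. Of their regions strong at Day0, 4 of 13 on chromosome 11 were lost at Day10, and 6 of 16 on chromosome 1. Those lost were 4 of 15 on chromosome 14, 6 of 15 on chromosome 2 and 9 of 16 on chromosome 9. In the Ptn and Chrm2 block 11 of 17 were lost, beside 13.8% over all regions strong at Day0. The likeness used the Day10 counts, and the block was chosen by ranks at Day10, so nothing is read from these shares. Genes in the 5 like blocks were not looked up, since no annotation of the build was used here.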

How the data were processed

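Each deposited file is 1 narrowPeak list per library. Its fold ratio over background, -log10 p and -log10 q (the authors' p-value and q-value scales) and integer score are the authors' deposited values, and the score was not used. Per the submitters' processing notes Trim Galore was used and the build was mm10. The scaffold names in the lists belong to GRCm39, so positions are given as GRCm39, counted from 1. For the aligner, the peak caller, its settings and any Tn5 shift, nothing was given in the sources used here. In all libraries 100.0% of the deposited fold ratios were whole pileups within 0.001 under a formula of (pileup + 1) / (background + 1), with a background of 0.72 and 0.73 at Day0, 0.8 and 0.8 at Day3, then 1.08 and 1.15 at Day10. Read totals are unknown, so no counting interval is given.

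Python 3.11.15 with pandas 2.3.3 ranked peaks by -log10 p, fold and position, built windows over the whole genome and applied the rank rule. The rule was also run on simulated lists with large planted changes, independent Poisson counts and other rank limits. That run checked only that the code finds such changes, not how often calls in these lists are wrong. Window overlap needed 1 base. Members, lists and rules were chosen with earlier results of these data known. Regions named are all lost regions, those strong on all days, and those nearest each gene's start. Other sites were named after their values were seen. No test was run, since the block was chosen from these calls. Alternatives were other rank limits, fold and q limits, narrower and wider windows, other peak sets and leaving out each library. Motifs in the regions, marker genes and repeat filters, which need a genome or annotation of the build, were not run.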

Additional observations from a re-analysis of the deposited data

How the results depend on the processing

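Lost regions at Day10 against Day0 numbered 9 to 15 with other window widths, with the summit or overlap rule alone, and with an outer limit of 75000 or no gap. They were 4 with rank limits of 30000 and 100000, 7 with fold limits, 3 with -log10 q limits, and 1 when a lost region had to be unlisted at Day10. Leaving out any 1 library gave 11, which shows little, since the 2 libraries of a day differ by less than sampling noise. Gained regions were 1 with no gap between limits and 1 with q limits, and 0 to 1 when 1 library was left out. At Day3 against Day0, lost regions were 3 with an outer limit of 75000, 5 with no gap and 1 with fold limits, and gained regions were 1, 3 and 0 in the same settings. Without Day0 replicate 1 the gained count was 1, and leaving out each library gave 0 to 1. At Day10 against Day3, lost regions were 2 with limits of 30000 and 100000, 10 with no gap, 0 when they had to be unlisted, 2 with fold limits and 3 with q limits, and 6 to 7 when 1 library was left out. Gained regions were 1 with q limits and 0 to 1 when 1 library was left out. Shares over all regions for losses at Day10 with fold and q limits are given in the results above. For the other alternative settings no share is given, so nothing about the block is read from how those counts moved.

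The ratio of peaks in the block at Day10 over Day0 was 0.22 in the main setting and with any 1 library left out. It was 0.47 with 100000 peaks, 0.32 with 30000, 0.93 at a -log10 q of 5, 0.84 at 10, 0.33 at a fold of 16 and 0.28 by covered bases, and it turned to 1.28 with all listed peaks. Day3 over Day0 was 0.86, and 0.83 to 0.89 when 1 library was left out. It turned to 1.04 with 100000 peaks, and was 0.98 with all peaks, 0.92 and 0.99 at the 2 q limits, 0.72 at a fold of 16 and 0.96 by covered bases. Day10 over Day3 was 0.26, and 0.25 to 0.27 when 1 library was left out. It was 0.45 with 100000 peaks, 0.38 with 30000, 0.85 at a -log10 q of 10, 0.46 at a fold of 16 and 0.29 by covered bases, and it turned to 1.30 with all peaks and 1.01 at a -log10 q of 5. The cause was not tested. The median log2 ratio at Day10 over Day0 was -2.07 with a limit of 30000, -1.30 with wider windows and -1.54 for listed regions alone, and -1.88 to -1.63 when 1 library was left out. These last alternatives were added after the data were seen.

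No paired analysis was possible because no label links the libraries of different days. The 2 libraries of a day differ by less than sampling noise and were counted as 1 sample, and no test was run. Sites below the authors' threshold are not listed, which limits what can be said of absent peaks.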
